A study of Mus musculus with 4 samples.

Results

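An inserted row of CTCF binding sites at the mouse HoxB locus was compared with the same row after 3 of its sites, CBS8-10, had been deleted. Both libraries were CTCF CUT&RUN of mouse embryonic stem cells (mESC). They make up 2 of the 4 libraries of the series, with 1 library per genotype. The first comes from a line that is HoxB Del/Del(i9-13) and carries Ins(CBS5-10), called the Ins library here. The second comes from a line with the same alleles and Del(CBS8-10) added, called the Del(CBS8-10) library here. What the 2 share is thus the pair of chromosomes named Del and Del(i9-13) and the insertion itself. Neither is a wild-type control. The labels do not say whether a line is 1 clone. The other libraries carried the inverted array (Inv) and the inverted array with CBS7-10 removed (Inv:Del(CBS7-10)), and are used below only to show whether a position was occupied elsewhere. The 2 libraries were chosen by these labels. Peak lists hold no expression, so the mESC label could not be checked against marker genes. With 1 library each there was no test, and no p-value is given.

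CTCF is a zinc-finger protein that binds a long, directional DNA motif and stops the cohesin complex as it extrudes chromatin loops. Rows of CTCF sites within Hox clusters separate genes that are switched on early in the embryo from those switched on late. The series title names the insulation of Hoxb13, the most posterior HoxB gene, as its subject. CUT&RUN tethers a nuclease to an antibody on the protein, so that short DNA fragments pile up where it is bound. A peak caller then reports an interval and, within it, a summit, the point with the highest pileup.

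The Ins list held 93969 peaks and the Del(CBS8-10) list 74555. The genome background, the commonest background level among the peaks of a list, was 0.858 stacked reads per position in the Ins library and 0.553 in the Del(CBS8-10) library, a ratio of 0.645. At the 54406 summits off chromosome 11 that were found in both lists, the median ratio of the Del(CBS8-10) pileup to the Ins pileup was 0.491, with 5th and 95th percentiles of 0.283 and 0.988. Scaled ratios below are relative to that median and are given as log2 values, with 0 for a peak that has the usual ratio. Using the ratio of the backgrounds would lower every one of them by 0.39. The Del(CBS8-10) library was therefore the shallower by both measures, and an absent summit has to be read against that.

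The inserted array carried 6 CTCF summits in the Ins library and 3 in the Del(CBS8-10) library. It spans 10244 bp between Hoxb13 and Hoxb9 on chromosome 11 of the modified mm10 genome that the files use. In order along the chromosome from the Hoxb13 side, the Ins pileups were 54 stacked reads at site 1 (summit 96199065), 58 for site 2 (96199594), 89 for site 3 (96200095), 112 for site 4 (96200618), 91 for site 5 (96201261) and 86 for site 6 (96201666). The summits were spaced by 529, 501, 523, 643 and 405 bp, and occupied 2601 bp of the insert. Site 4, near the middle of the row, was the highest, and the pair nearest Hoxb13 was the lowest.

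Sites 4, 5 and 6 were also called in the Del(CBS8-10) library, with pileups of 30, 45 and 33 stacked reads. Their summits lay 5, 0 and 8 bp from the Ins summits. The order of height was not the same: site 4 was the highest of the 3 in the Ins library and the lowest in the Del(CBS8-10) library. The scaled log2 ratio at site 4 was -0.87, with a 95% counting interval of -1.51 to -0.28. At site 5 it was 0.01 (-0.54 to 0.54) and at site 6 it was -0.36 (-0.98 to 0.24). Among the 3275 summits of chromosome 11 outside HoxB that were found in both lists, these ratios stood at percentiles 4.67, 52.9 and 24.2. The site that borders the absent ones was thus the one with the lower ratio. The intervals of the 3 sites overlap one another, and whether they differ was not tested.

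**Figure D1:**
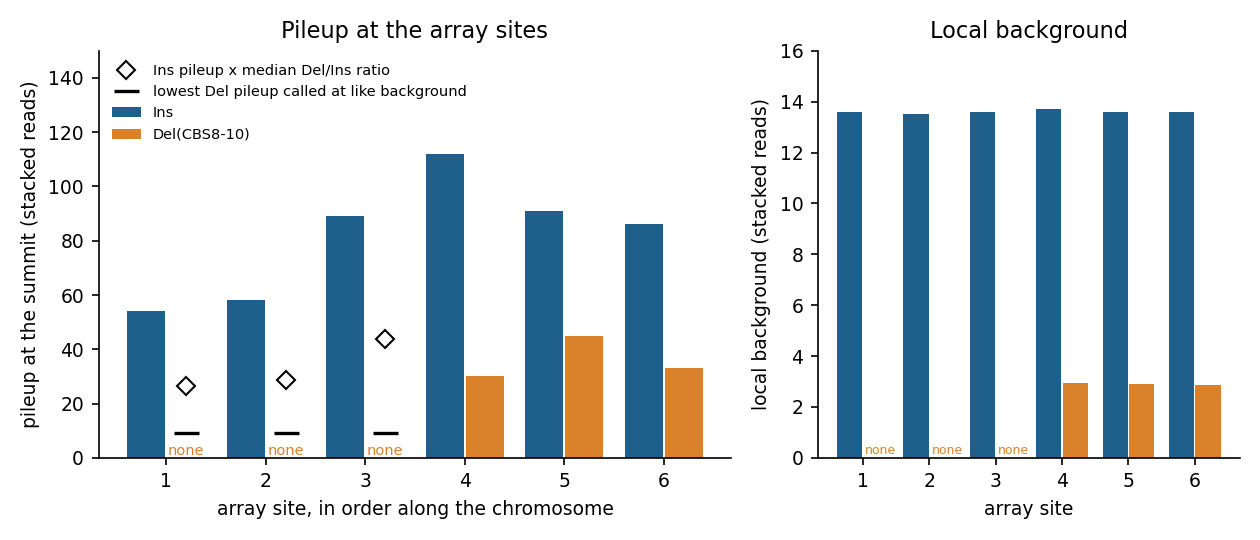
Pileup at the summit (left, stacked reads) and local background (right, stacked reads) of the 6 array sites in the Ins and Del(CBS8-10) libraries, 1 library each. Open diamonds mark the Ins pileup multiplied by the median Del(CBS8-10) to Ins ratio, and dashes the lowest pileup the Del(CBS8-10) list held at a like background. Sites 1 to 3 have no Del(CBS8-10) summit although the diamonds (26.5 to 43.7) lie above the dashes (9).

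Sites 1, 2 and 3 had no Del(CBS8-10) summit within 100 bp, and none of the 3 positions lay inside any Del(CBS8-10) interval. At the median ratio, the Ins pileups would correspond to 26.5, 28.5 and 43.7 stacked reads in the Del(CBS8-10) library. At the lowest ratio among the remaining sites, 0.268 at site 4, they would correspond to 14.5, 15.5 and 23.8. The local background over the array in the Del(CBS8-10) library was 2.90, and the lowest pileup among the 8682 Del(CBS8-10) peaks at a background within 20% of that was 9. A pileup of 9 would give scaled log2 ratios of -1.56 at site 1, -1.66 at site 2 and -2.28 at site 3. These are not strict bounds, because 9 is the lowest called value over a range of backgrounds and an uncalled pileup could be higher. All 3 expected pileups were above the lowest pileup that was called, under either ratio.

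How often peaks of like strength dropped out elsewhere gives a second reading of the same absences. On chromosome 11 outside HoxB, 35.6% of 5085 Ins summits had no Del(CBS8-10) summit. Among those with a −log10 q within 20% of that of the site, the share was 42.9% for site 1, 32.0% for site 2 and 2.93% for site 3. When peaks of all chromosomes were matched on pileup and background instead, each within 20%, the shares were 43.6% (79 of 181) for site 1, 37.1% (79 of 213) for site 2 and 7.01% (23 of 328, interval 4.72 to 10.3) for site 3. Of these, 68, 68 and 11 also lay outside every Del(CBS8-10) interval. Matching on pileup and background thus left sites 1 and 2 among peaks that were often missing, and site 3 among peaks that seldom were. These like peaks stood in their own local background in the Del(CBS8-10) library, not in that of the reduced array.

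The local background of the array changed along with its summits. It was 13.6 stacked reads in the Ins library (13.5 to 13.7 over the 6 sites) and 2.90 in the Del(CBS8-10) library, a ratio of 0.213. The summed pileup of the called sites was 490 and 108, a ratio of 0.220, whereas over sites 4 to 6 alone it was 289 and 108, a ratio of 0.374. Background per unit of summed pileup was 0.0277 and 0.0269. Because the background was so much lower, the fold at the remaining sites was higher in the Del(CBS8-10) library although the pileup was lower: 7.87 against 7.71 for site 4, 11.8 against 6.29 for site 5 and 8.76 against 5.96 for site 6. The number of absent summits equals the number of sites named in the deletion, but no label by itself pairs a summit with a CBS number. On the inverted arrays, sites 3, 4 and 6 had Inv pileups of 38, 41 and 17, and sites 5 and 6 had Inv:Del(CBS7-10) pileups of 107 and 95. These positions are those of the uninverted reference. Inv:Del(CBS7-10), whose label leaves CBS5 and CBS6, had no summit at sites 1 to 4. Del(CBS8-10), whose label leaves CBS5 to CBS7, had summits at sites 4 to 6 only. Read together, the labels and summits would place CBS7 at site 4 and the deleted CBS8-10 at sites 1 to 3. An absent summit does not by itself mark a deleted site, however. Inv, whose label removes no site, had no summit at sites 1, 2 and 5, and peaks like sites 1 and 2 were often missing elsewhere. This pairing rests on 1 library per line and not on sequence. None of the other 3 libraries had a summit at site 1 or 2.

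Outside the array, most CTCF peaks around HoxB were found in both libraries. Of 12 Ins peaks from Ttll6, which encodes a tubulin polyglutamylase, to Hoxb1, 9 had a Del(CBS8-10) summit and 3 did not (25%, against 35.6% over the rest of the chromosome). The 3 were among the weakest. They were at 96160633 and 96165671 within Ttll6, with Ins pileups of 18 and 10, and at 96220196 within Hoxb8, with 7. On chromosome 11, 59.7%, 70.9% and 90.7% of peaks with a like −log10 q had no match, so these absences were not readable at this depth.

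On the Hoxb13 side, the Ttll6 peak at 96127135 had pileups of 69 in the Ins and 33 in the Del(CBS8-10) library, a scaled log2 ratio of -0.04. The next, at 96133700, had 56 and 25 (-0.14). The Ttll6 peak at 96157361 had 42 and 25 (0.28), and the peak 3.84 kb from Hoxb13, at 96190480, had 13 and 6 (-0.09, interval -1.77 to 1.41). These 4 peaks kept about the usual ratio of the libraries. The remaining one, at 96145801 within Ttll6, had 45 and 11, a scaled log2 ratio of -1.01 (-2.11 to -0.03) at percentile 2.93 of the shared chromosome 11 peaks. Both copies of chromosome 11 in the reference hold this stretch, so that its reads may come from either.

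On the other side of the array, the strongest HoxB peak, 0.442 kb from Hoxb8 at 96214484, had pileups of 132 and 41. Its scaled log2 ratio of -0.66 (-1.20 to -0.15) stood at percentile 10.0. The peak within Hoxb6, at 96230183, had 40 and 23, a scaled log2 ratio of 0.23 (-0.58 to 1.00). The peak at 96238800, within the lncRNA gene Hoxb5os, had 46 and 10, a ratio of -1.18 (-2.33 to -0.17) at percentile 1.62. The intervals of these 3 peaks overlap, and whether their ratios differ was not tested.

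The peak within the span of Hoxb3, at 96247312, had pileups of 51 in the Ins library and 5 in the Del(CBS8-10) library, where it was barely called (−log10 q 2.44). The other lines had 18 (Inv) and 50 (Inv:Del(CBS7-10)) there. Its scaled log2 ratio of -2.32 (-4.01 to -1.01) was below that of each of the 3275 other shared chromosome 11 peaks. Of 830 chromosome 11 peaks of like Ins pileup, none of those found in both lists had as low a ratio, and 32 (3.86%) had no Del(CBS8-10) summit at all. Over all chromosomes the share as low or missing was 6.14% of 10510. Hoxb3, like its neighbours, encodes a transcription factor that specifies position along the body axis. With 1 library per line, a difference of the line cannot be told apart from one of the library.

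**Figure D2:**
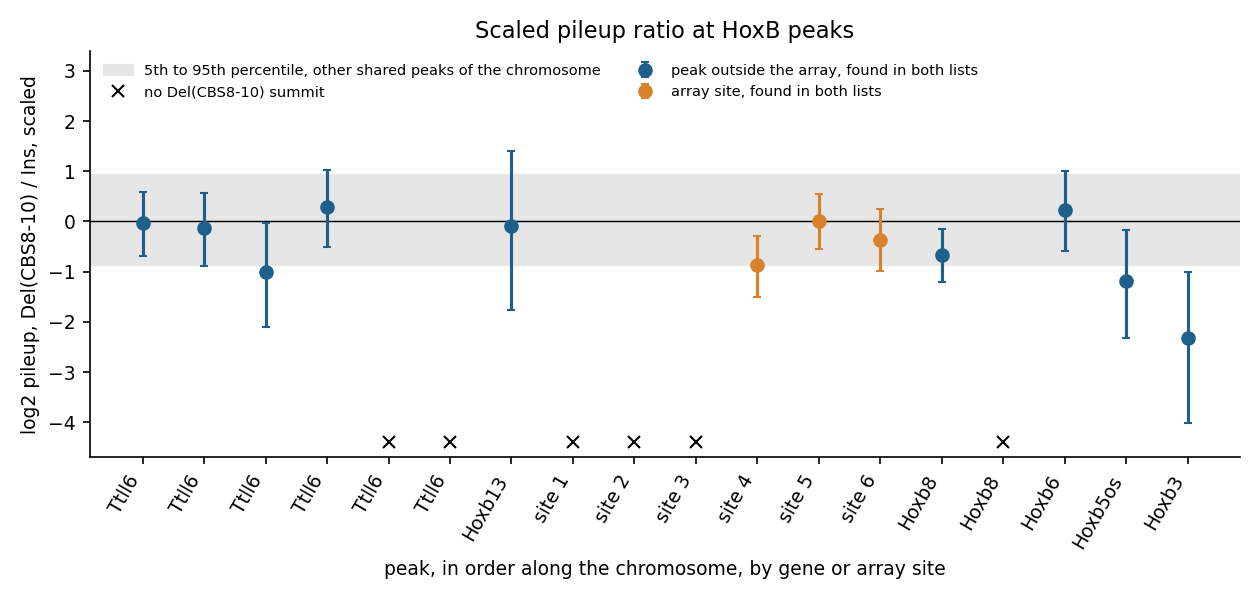
Scaled log2 ratio of Del(CBS8-10) to Ins pileup (vertical axis) at the 18 HoxB peaks of the Ins library, array included, in order along chromosome 11 and named by gene or array site. Bars are 95% counting intervals, the grey band runs from -0.86 to 0.92, the 5th to 95th percentile of the other shared chromosome 11 peaks, and crosses mark the 6 peaks with no Del(CBS8-10) summit. The peak at the right end, within the span of Hoxb3, lies lowest at -2.32.

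The Del(CBS8-10) library held 2 summits in the cluster that the Ins list lacked. One was within Hoxb6 at 96230482, with a −log10 q of 2.47 and a pileup of 7. The other was within Hoxb5 at 96239135, with 3.09 and a pileup of 6. Both were near the lower limit of the list, and neither was in the array.

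Away from chromosome 11 the 2 lists shared their strong summits and differed in their weak ones. Of 83809 Ins summits, 29403 (35.1%, interval 34.8 to 35.4) had no Del(CBS8-10) summit within 100 bp and are called lost below. Of 66803 Del(CBS8-10) summits, 12397 (18.6%, 18.3 to 18.9) had no Ins summit and are called gained. Both words describe lists, not a test. The median pileup was 12 for lost summits and 48 for Ins summits that were found. For gained summits it was 7, against 22 for Del(CBS8-10) summits that were found.

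The share of lost summits was 84.7% at a −log10 q under 5 and 68.5% from 5 to 10. It was 38.8% from 10 to 20, 7.84% from 20 to 50, 0.416% from 50 to 100 and 0.422% from 100 up. The share of gained summits went from 58.3% under 5 through 21.4% and 3.4% to 0.274% from 20 to 50. Nearly all the difference between the lists was therefore in peaks of low significance. The lowest pileup called at the genome background was 5 in the Ins and 4 in the Del(CBS8-10) library.

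**Figure D3:**
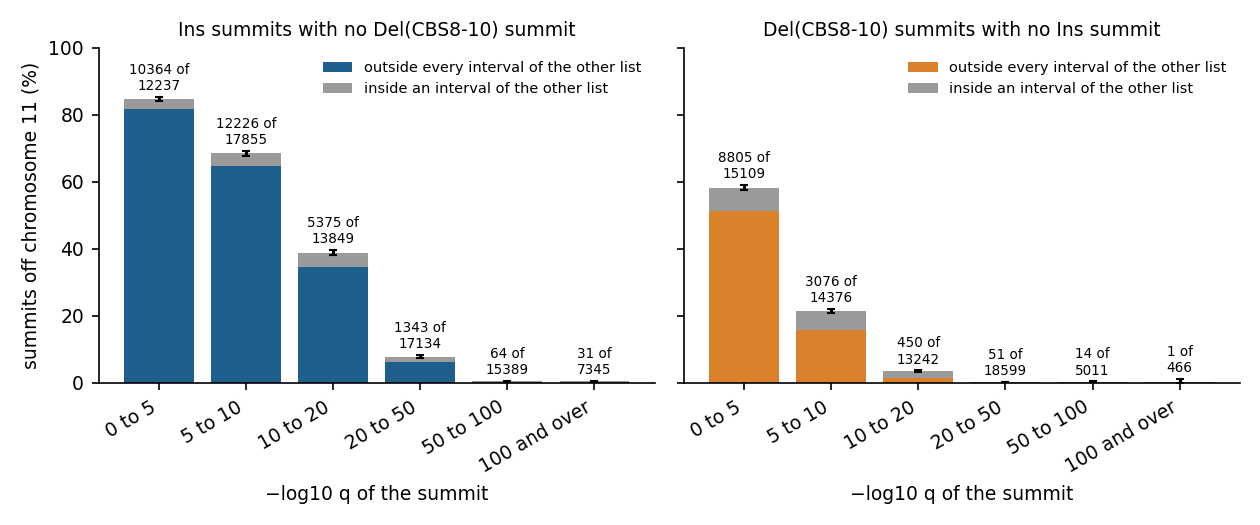
Share of summits off chromosome 11 with no summit within 100 bp in the other list (vertical axis, %), by −log10 q band of the summit, for the Ins list (left) and the Del(CBS8-10) list (right). Coloured parts lie outside every interval of the other list, grey parts lie inside one, lines are 95% Wilson intervals and the counts stand above. At a −log10 q of 20 or more, 1438 Ins summits were lost and 66 Del(CBS8-10) summits gained.

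Many of the strong differences were displaced summits within an interval that both lists had. All 66 gained summits with a −log10 q of at least 20 lay inside an Ins interval. Of the 1438 lost ones, 340 lay inside a Del(CBS8-10) interval and 1098 did not. The strongest gained summit, within Fbln1 (the matrix protein fibulin 1) on chromosome 15, had a pileup of 150 and lay 123 bp from an Ins summit. The next, within Dido1 on chromosome 2, had a pileup of 113 and a displacement of 160 bp. The other 8 of the 10 strongest gained summits, nearest to Bcan, Slc27a4, Gm6020, Cxcl17, Rn7s1, Azin2, Ehmt2 and Gm40698, were displaced by 109 to 199 bp. Ehmt2 encodes a histone H3 methyltransferase. Its locus appeared on both sides of the count, as a lost summit of pileup 179 and a gained summit of pileup 89, 145 bp apart.

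Outside Ins intervals, the highest −log10 q of a gained summit was 19.4, at 2 positions. One was on the X chromosome at 127484847, 88.9 kb from the nearest gene, with a pileup of 18. The other was 6.18 kb from Nrp2, a semaphorin and VEGF co-receptor, on chromosome 1, with a pileup of 32. Others in the top 10, named after their values were seen, were within Slc16a10, Pdzrn4 and Iqsec3 (pileups of 19, 17 and 17) and 3.44 kb from Fat1, an atypical cadherin (35). The Del(CBS8-10) library thus had no summit with a −log10 q of 20 or more outside the intervals of the Ins list.

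Unmatched summits were less often present in the other libraries than matched ones. Of the lost summits, 17.7% were found in both the Inv and the Inv:Del(CBS7-10) lists and 49.5% in neither. Of the gained summits, 7.1% were found in both and 73.0% in neither. Among summits found in both lists compared, the share in both others was 73.4% (counted from the Ins list) and 73.1% (from the Del(CBS8-10) list). In the band from 20 to 50, 51.4% of lost summits were in both others, against 75.7% of found ones.

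A second group of strong lost summits was seen in the Ins library alone. Of 22734 Ins summits with a −log10 q of at least 50, 28 (0.123%) were in no other list and inside no interval of one. Counted the same way, 0 of 5477 were private to the Del(CBS8-10) library, 0 of 5071 to Inv and 12 of 31633 to Inv:Del(CBS7-10). These 28 were narrow. Their intervals had a median width of 264 bp, against 479 bp for 19167 other Ins peaks of that strength, and 25 of the 28 were below 303 bp, the 5th percentile of the others. Their background was also low for their pileup, with a median of 0.0234 background reads per stacked read against 0.0400.

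All 10 of the strongest lost summits belonged to this group. The strongest, within the lncRNA gene Gm34259 on chromosome 17, had a pileup of 479 and was the widest of the 28 at 609 bp. The next were 9.58 kb from Gm18326 on chromosome 6 (pileup 316), 11 kb from Gm6216 on chromosome 1 (274) and 8.09 kb from Olfr854, an odorant receptor gene, on chromosome 9 (270). Within genes they included Dpp9, a dipeptidyl peptidase (282), Auts2 (210), Acacb, an acetyl-CoA carboxylase (281), and Ybx3, a cold-shock domain protein (148). The remaining pair lay near Gm13580 (174) and within D130079A08Rik (170). Over the 28, pileups ran from 48 to 479 on 13 chromosomes, 15 were within genes and 0 within 1 kb of a protein-coding start. Their width and restriction to 1 library are given as measured. What made them was not tested.

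**Figure D4:**
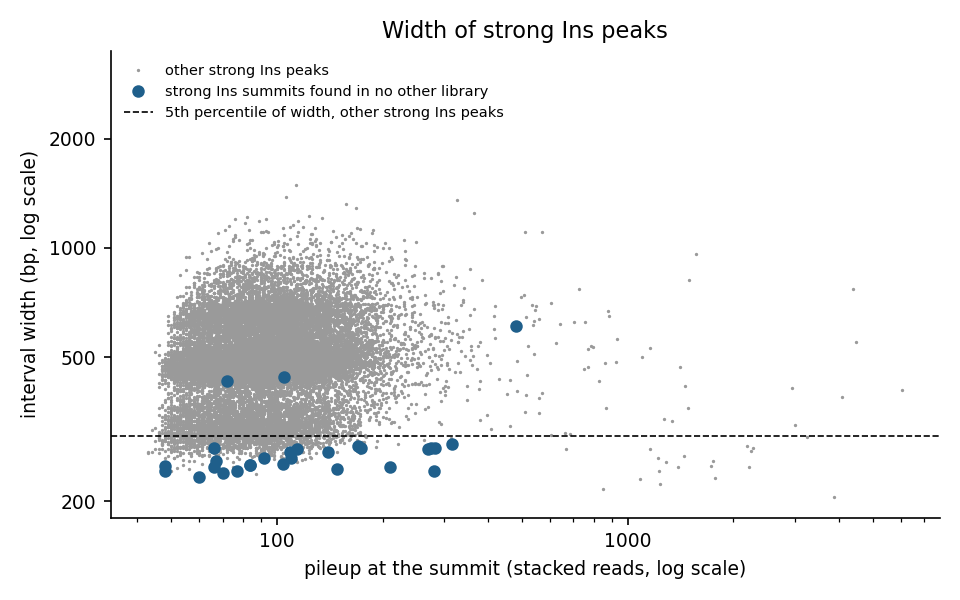
Interval width (bp, log axis) against summit pileup (stacked reads, log axis) for Ins peaks off chromosome 11 with a −log10 q of at least 50. Blue points are the 28 summits found in no other library, grey points the other peaks with 1 summit, and the dashed line their 5th percentile of width (303 bp). The blue points lie below the line at 25 of 28 positions.

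A smaller set was found in the other 3 libraries and missing from the Del(CBS8-10) list alone. It held 10 summits with a −log10 q of 50.1 to 72.0 in the Ins library, outside every Del(CBS8-10) interval. Examples were within Mapk8ip3, a JNK scaffold protein, and Traf7, both on chromosome 17 (pileups of 67 and 59), and 3.18 kb from Ascl5 on chromosome 1 (85). The nearest Del(CBS8-10) summits lay 284 bp, 11.4 kb and 1.64 kb away, so the first had a called neighbour close by. At the summits that stayed in both lists, large differences were rare, but being called in both leaves out many large drops in advance. The lowest pileup called at the genome background was 4 in the Del(CBS8-10) library. Ins summits that were lost, and so not counted here, numbered 1805 at a pileup of 30 to 50, 362 at 50 to 100 and 55 from 100 up. Of 40589 with a pileup of at least 30 in the Ins library or, after scaling, in the Del(CBS8-10) library, 9 had a scaled log2 ratio of -2 or lower and 31 of 2 or higher. The lowest was 3.94 kb from Lef1, which encodes a transcription factor of Wnt signalling, with pileups of 65 and 6 (-2.41, interval -3.91 to -1.21). It was followed by Syt2 (62 and 6), Arhgap32 (60 and 6), Gm23745 (51 and 6) and Mamstr (51 and 6). The highest was at Gm28649 on the Y chromosome, with 7 and 25 (2.86, interval 1.61 to 4.32), followed by Ano3 (6 and 20), Usp45 (6 and 16), Trir (8 and 21) and Kcnn2 (7 and 18). The Ins values recovered at Usp45 are doubtful. Its background of 0.222 was below the commonest level of 0.858, and its −log10 q was 6.19. Ano3 and Kcnn2, with Ins pileups of 6 and 7 at 0.858, had 2.49 and 3.41. An Ins peak of pileup 10 at 0.858, within Ttll6, had 6.48. The Usp45 ratio may thus be overstated, and its rank is uncertain. These 10 were picked as the extremes, and their values are a description.

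By place in the genome, summits at gene starts were lost more often than others. Within 1 kb of a protein-coding start, 3426 of 7254 Ins summits (47.2%, 46.1 to 48.4) were lost, against 35.0% of all. The start-site summits were weaker (median −log10 q 12.2 against 17.9). At the −log10 q make-up of the whole list the share was 39.0%. Within the band from 10 to 20 it was 47.0% against 38.8%, and from 20 to 50 it was 12.8% against 7.87%. Gene bodies of protein-coding genes (34.8%), lncRNA genes (34.4%) and pseudogenes (32.9%) stood near the whole list. In the other direction, 719 of 4543 Del(CBS8-10) start-site summits (15.8%) were gained, against 18.5% of all, or 13.2% at the make-up of the list. Start-site summits made up 8.92% of the Ins and 7.02% of the Del(CBS8-10) list, and 8.8% and 7.72% of the Inv and Inv:Del(CBS7-10) lists.

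Summits over 50 kb from any gene went the other way in the gained share, and in the lost share only at the make-up of the list. Of 3133 such summits in the Del(CBS8-10) list, 995 (31.8%, 30.2 to 33.4) were gained, against 18.5% of all, or 22.7% at the make-up of the list. The Y chromosome held 105 of the 995. Of the 3339 such summits in the Ins list, 36.0% were lost, against 35.0% of all, or 30.9% at the make-up of that list. At shared summits the median scaled log2 ratio was 0.15 in these places and -0.08 at gene starts. At an Ins −log10 q of at least 50 it was -0.06 and -0.22, against -0.13 over all places, so the positive sign was not kept there. The genome background was 0.858 and 0.553 in the Ins and Del(CBS8-10) libraries, and its part in the shares of start-site summits was not tested.

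**Figure D5:**
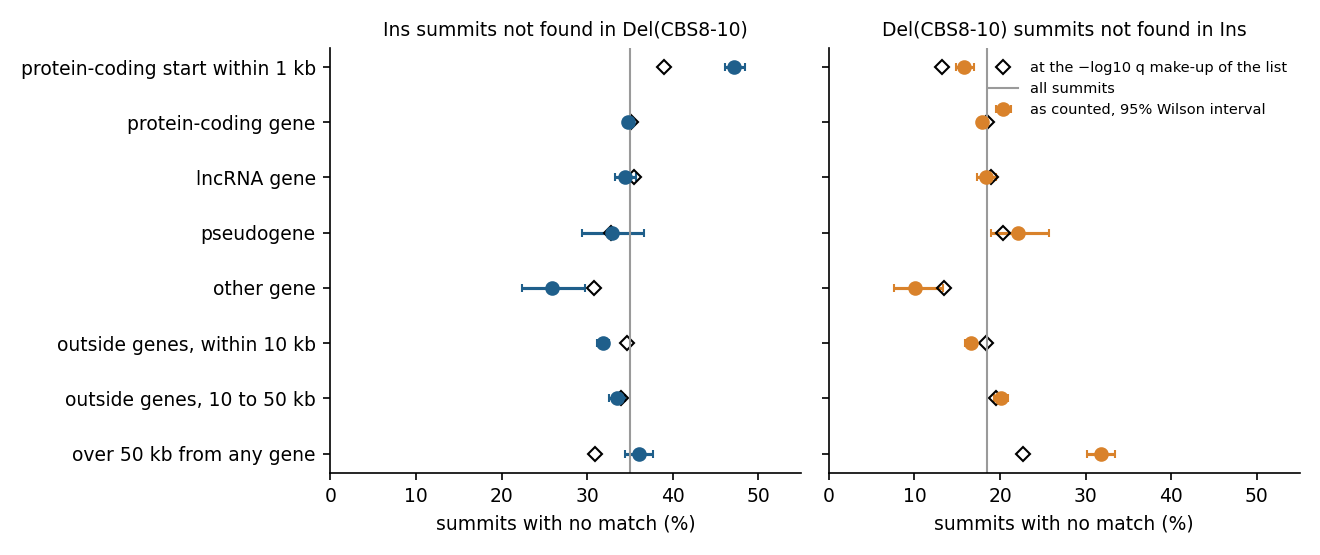
Share of summits with no match in the other list (horizontal axis, %) by place in the genome, for lost summits of the Ins list (left) and gained summits of the Del(CBS8-10) list (right). Filled points are counts with 95% Wilson intervals, open diamonds the share at the −log10 q make-up of the whole list, and grey lines the share of all summits, 35.0% and 18.5%. Gene starts lie to the right of the line on the left panel (47.2%) and to the left of it on the right panel (15.8%).

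Chromosomes differed little, apart from Y. Between 33.7% (chromosome 8) and 36.8% (chromosome 13) of Ins summits were lost, and between 16.3% (chromosome 19) and 21.7% (chromosome 13) of Del(CBS8-10) summits were gained. On the Y chromosome the Del(CBS8-10) list held 284 peaks, although it is the shorter list, whereas Ins had 160, Inv 81 and Inv:Del(CBS7-10) 68. Of the 284, 183 (64.4%) were gained. At Y summits in both lists the median scaled log2 ratio was 0.59. Weak shared summits had high ratios in general, with a median of 1.03 at an Ins −log10 q under 5, and the Y summits of the Ins list had a median −log10 q of 6.48.

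The strongest lost summits at gene starts were mostly displaced within an interval of the other list. Of the 10, 7 lay inside a Del(CBS8-10) interval, 166 to 246 bp from its summit. They were at the starts of Thap11, Srgap2, Aamdc, Abtb1, Tbc1d10b, Kazald1 and Prkab1, with Ins pileups of 49 to 98. The other 3 had no Del(CBS8-10) interval. The summit 15 bp from the start of Zc3h10, which encodes a CCCH zinc finger protein, had an Ins pileup of 73 and was also found in the Inv and Inv:Del(CBS7-10) lists. Rab11fip5, a Rab11 effector of endosome recycling, had 53, and Zfp956 had 38, and each was likewise found in both of those lists. All of the 10 strongest gained start-site summits lay inside an Ins interval. They were at Ndufa3 (a subunit of respiratory complex I, pileup 66), Mc1r (the melanocortin receptor, 51), Nat8f4 (28), Fam72a, Sp1, Smg1, Lman2, Gatad2b, Zbtb5 and Zfp444 (19 to 27).

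The promoter sequences show how often windows with such summits held a CTCF-like motif, at any distance from the summit. The motif, which reads CC, any 3 bases, AGG, any base and GGC, was searched on both strands in 30562 windows of 300 bases off chromosomes 11 and 18 (250 before to 50 after a start, RefSeq, GRCm38.p6). It was present in 3.36% of all windows, in 13.5% (399 of 2946) of those with a shared summit, in 5.41% (124 of 2291) of those with a lost summit outside Del(CBS8-10) intervals and in 3.69% (9 of 244) of those with a gained summit outside Ins intervals. At an Ins −log10 q from 10 to 50 it was 10.1% for shared and 6.53% for lost summits, and under 10 it was 4.53% and 5.02%. Where the motif was present, the summit lay a median of 28 bp from it in windows with a shared summit and 44 bp in windows with a lost one, and within 50 bp in 73.4% and 57.3% of them. Windows of strong shared summits (−log10 q of at least 50) held it in 27.4% of cases. The intervals of the shared and lost shares in the weakest class overlap (3.04 to 6.70 and 4.06 to 6.18).

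Printed next are stretches of 100 bases before the start of genes, each 5′ to 3′ on the strand of the gene, with the motif match in capitals. The first 3 are the strongest shared start-site summits with a match within 100 bp, and the next 3 the strongest lost ones outside Del(CBS8-10) intervals. Both sets were picked after the values were seen. The last 2 are the named gained summits whose promoter holds a match. None of the 10 named lost start-site promoters held one.
Uqcrc1 (shared, chr9:108936548-108936647, plus strand): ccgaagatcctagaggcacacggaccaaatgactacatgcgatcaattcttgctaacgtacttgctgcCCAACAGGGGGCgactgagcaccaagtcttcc
Nectin2 (shared, chr7:19749687-19749786, minus strand): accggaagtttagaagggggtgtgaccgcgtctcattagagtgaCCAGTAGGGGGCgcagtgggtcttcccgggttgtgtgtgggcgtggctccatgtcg
Hsd3b7 (shared, chr7:127800464-127800563, plus strand): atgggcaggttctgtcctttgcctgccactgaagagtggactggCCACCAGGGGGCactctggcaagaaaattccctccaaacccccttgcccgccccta
Zzz3 (lost, chr3:152395861-152395960, plus strand): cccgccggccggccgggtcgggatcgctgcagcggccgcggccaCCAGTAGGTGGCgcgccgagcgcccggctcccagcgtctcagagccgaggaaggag
Palm (lost, chr10:79793472-79793571, plus strand): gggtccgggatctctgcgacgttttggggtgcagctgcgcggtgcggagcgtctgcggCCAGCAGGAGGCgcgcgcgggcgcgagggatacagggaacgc
Cep135 (lost, chr5:76588599-76588698, plus strand): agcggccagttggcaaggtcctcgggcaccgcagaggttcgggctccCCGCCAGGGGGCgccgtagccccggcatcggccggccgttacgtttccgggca
Mc1r (gained, chr8:123406938-123407037, plus strand): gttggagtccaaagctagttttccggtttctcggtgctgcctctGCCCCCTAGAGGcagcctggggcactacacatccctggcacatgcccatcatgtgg
Nat8f4 (gained, chr6:85904939-85905038, minus strand): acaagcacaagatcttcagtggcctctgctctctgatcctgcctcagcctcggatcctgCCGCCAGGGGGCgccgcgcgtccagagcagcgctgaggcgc

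The shared summit before Uqcrc1, which encodes a core subunit of respiratory complex III, had pileups of 343 in the Ins and 135 in the Del(CBS8-10) library. It lay 44 bp from the middle of the match. The one before Nectin2, a cell adhesion protein, had 331 and 133, and the one before Hsd3b7, a bile acid synthesis enzyme, had 266 and 128. The lost summits were far weaker. Their Ins pileups were 39 before Zzz3, 52 before Palm and 28 before Cep135, a centriole protein, where the summit lay 7 bp from the middle of the match. Cep135 and Nat8f4 have the same letters in capitals, CCGCCAGGGGGC. At the 2 gained summits, the middle of the match lay 177 bp (Mc1r) and 227 bp (Nat8f4) from the summit. A match is a run of letters and not a measured site.

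Gene classes were read by the summits within 10 kb of their genes, off chromosome 11. Over all genes, 35.3% of Ins summits were lost and 17.5% of Del(CBS8-10) summits gained. For each list the share expected from the −log10 q of its summits is given beside the count. These counts describe which weak summits were called, and CTCF near a gene does not measure its expression.

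Pluripotency genes, which keep stem cells self-renewing, had 145 Ins summits, of which 63 (43.4%) were lost, against 44.4% expected. The strongest lost ones were near Lefty2, a Nodal inhibitor (pileup 75, displaced by 156 bp within an interval), within Esrrb, a nuclear receptor of the network (48), and near Tdgf1, a Nodal co-receptor (30). Esrrb had 16 Ins summits within 10 kb, 11 of them lost. The share expected from the −log10 q of these 16 was not computed, so the count is not read as a result about this gene. Of 100 Del(CBS8-10) summits, 18 (18%) were gained, against 24.2% expected, the strongest of them 8.38 kb from Pou5f1 (24). Chromatin repressors of stem cells had 55 of 141 lost (39.0%, 38.5% expected), among them 1 within Hdac1, a histone deacetylase (25), and 1 within Jarid2, a Polycomb partner (37). Genes for CTCF and cohesin had 45 of 116 lost (38.8%, 40.5% expected), with Esco1, Nipbl and Ctcfl named first.

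Genes of axis elongation and termination had 61 of 150 Ins summits lost (40.7%, 36.7% expected) and 18 of 107 Del(CBS8-10) summits gained (16.8%, 18% expected). The strongest lost were next to Grhl3, an epithelial transcription factor (pileup 32), at Evx2, a homeobox gene beside HoxD (35), and near Dll3, a Notch ligand of somite formation (30). The strongest gained were near Tgfbr1, a TGF-beta receptor (18), within Wnt5b (13) and at Sp5, a Wnt target (12). In the other Hox clusters, 5 of 13 Ins summits were lost at HoxA, 5 of 10 at HoxC and 4 of 12 at HoxD, with 4.55, 4.48 and 2.56 expected. None of their 8, 5 and 8 Del(CBS8-10) summits was gained, with 0.116, 0.594 and 0.687 expected. The 4 lost at HoxD were all among the 6 Ins summits within 10 kb of Hoxd13, at its posterior end, the strongest with a pileup of 31. No expected share was computed for those 6.

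Germ layer regulators had 32 of 70 Ins summits lost (45.7%, interval 34.6 to 57.3, 36.4% expected). At a −log10 q of at least 10 in both lists 15 of 43 (34.9%) were lost, against 33.0% of all summits off chromosome 11. The strongest lost were 8.17 kb from Eomes, a T-box factor (pileup 71), next to Nes, an intermediate filament gene (59), and within Gata6, an endoderm factor (21). Each was found in the Inv list. Imprinted genes had 42 of 112 lost (37.5%, 33.5% expected), with Usp29, Nnat and Slc38a4 named first (38, 44 and 28). Homeobox and Pax regulators had 64 of 189 lost (33.9%, 32.3% expected), the strongest within Irx4 (45). Genes of the fibroblast list, which marks feeder cells, had 7 of 25 lost (28.0%, 30.3% expected).

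Clustered protocadherins, whose promoters are chosen through CTCF and cohesin, lost the smallest share of the lists, 14 of 108 summits (13.0%, 15.6% expected). Their Ins summits had a median −log10 q of 62.4, against 18 over all genes. Cytosolic ribosomal protein genes had 82 of 242 lost (33.9%, 31.7% expected) and 20 of 180 gained (11.1%, 12.3% expected). Near Rps29 both lists had a strong summit, with pileups of 199 and 95, but they lay 144 bp apart. The gained summit here is the one named above by Rn7s1, which is nearer to it (0.147 kb) than Rps29 (0.554 kb). Zfp genes had 481 of 1189 lost (40.5%, 39.4% expected), the strongest within Zfp949 (125). Histone genes had 27 of 63 lost (42.9%, 41.1% expected). In these 4 classes the lost shares lay within 3 percentage points of those expected.

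A further 5 families gave counts of the same kind. Sox genes had 28 of 70 Ins summits lost (40.0%, 39.9% expected), Wnt ligands and Fzd receptors 22 of 72 (30.6%, 29.1% expected) and Fgf ligands and receptors 30 of 100 (30.0%, 29.0% expected). Keratin genes had 11 of 30 lost (36.7%, 35.2% expected) and cytochrome P450 genes 60 of 184 (32.6%, 30.0% expected). Named first were Sox5, a transcription factor gene with a lost summit of pileup 21, Wnt1 and Wnt10b, which share a lost summit of pileup 30, Fgf21, a metabolic hormone gene (37), Krt7 (33) and Cyp4f16 (70).

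Chemosensory receptor genes, which include the odorant and vomeronasal receptors, had the highest share of gained summits. Of 329 Del(CBS8-10) summits near them, 106 (32.2%, interval 27.4 to 37.4) were gained, against 17.5% over all genes and 23.8% expected from their −log10 q. Of 332 Ins summits, 108 (32.5%) were lost, against 35.4% expected. The strongest gained were 9.07 kb from Vmn1r46 (pileup 13), within Vmn2r59 (14) and near Vmn2r82 (14), all weak. At a −log10 q of at least 10 in both lists 6 of 152 (3.95%) were gained, against 3.5% of all summits off chromosome 11.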

How the data were processed

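CTCF CUT&RUN peaks of 4 mESC libraries were used. Per the submitters' processing notes, peaks came from MACS2 2.2.7.1 on an mm10 build, after cutadapt 4.1, Bowtie2 2.4.5, and Picard and bedtools 2.30.0. Their settings and any control library are not stated in the sources used here. Each deposited list holds a score per peak, which is 10 times the −log10 q, the fold over local background, a ratio, and the −log10 p and −log10 q of the authors' peak caller. All were computed by the authors within 1 library. The files use a modified mm10 with 2 copies of chromosome 11. Read depths are not stated either.

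Whole-number pileups and backgrounds were recovered from the fold, with 1 added to each, and the −log10 p (tolerance 0.001, 100% of peaks), which was tested on simulated data. Most simulated pileups were far above the medians of lost and gained summits (12 and 7), so recovery at such low pileups was hardly checked. At a low pileup more than 1 pair can fit the same values, as at Usp45. Summits within 100 bp were matched. Intervals are 95% Wilson intervals, or for pileup ratios exact counting intervals, and cover counting error only. The stacked reads carry no molecular identifiers. Expected shares apply the share of each −log10 q band over all summits to the summits of a place or list. Genes and promoters came from RefSeq (GRCm38.p6), and positions after the array were shifted by 64475 bp to place genes. The promoter table used here covers no chromosome 18, which is left out of the analysis of places. Of 2619 listed genes, 2 were not matched and 162 on chromosome 11 were left out.

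Named were all array and HoxB peaks, the 10 strongest lost and gained summits, overall and within 1 kb of protein-coding starts, the 5 highest and lowest ratios and up to 3 genes per list and direction. Not all of these are reported here. Members and lists were chosen with earlier results of these data known. Python 3.11.15, NumPy 2.4.6, pandas 2.3.3, SciPy 1.17.1 and Matplotlib 3.10.9 were used. Alternatives were stricter −log10 q, the strongest peaks, equal list lengths, other matching distances, overlap, matching on pileup, gene starts with 2 kb and scaling by background.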

Additional observations from a re-analysis of the deposited data

Results flagged for a closer look

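Peaks on the mitochondrial chromosome lay outside the comparison. The Ins library had 21, with a −log10 q of up to 40.1, and the Del(CBS8-10) library had 13, up to 12.3. Of the 21, 10 had a Del(CBS8-10) summit within 100 bp. No control library was analysed here.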

How the results depend on the processing

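Sites 1 to 3 of the array stayed absent with matching within 250 bp and by overlap, the settings that could have changed this. Matching within 50 bp, a −log10 q of at least 10 and a shorter Ins list cannot add a Del(CBS8-10) summit, so their outcome was fixed in advance. No array site was among the 20000 strongest Ins peaks, so that setting gave no value. Like peaks matched on pileup and background were missing in 37.1% (site 2) and 7.01% (site 3) of cases, against 32.0% and 2.93% by −log10 q. Of the remaining HoxB peaks, 5 were found when −log10 q had to reach 10 and 1 among the 20000 strongest. The Ins list then held 8 and 1 of them. At 10, 3 of the 8 had no match because their Del(CBS8-10) −log10 q was lower, at 7.59, 7.54 and 2.44 (within Ttll6, Hoxb5os and the Hoxb3 span).

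The lost share off chromosome 11 (35.1%) was 33.0% at a −log10 q of at least 10, 16.5% for the 20000 strongest, 22.8% with the Ins list cut to the length of the other, 38.2% within 50 bp, 32.2% within 250 bp and 29.6% by overlap. The gained share (18.6%) was 3.5%, 16.5%, 23.2%, 22.4%, 15.5% and 14.2% in the same order. Lists of equal length must give about equal shares. At a −log10 q of at least 10, 35.1% of lost and 20.5% of gained summits were in both other libraries. Listed genes with a lost summit numbered 777, and 243 when gene starts with 2 kb were used. Those with a gained summit numbered 474, then 81, and 60 at a −log10 q of at least 10 in both lists. For chemosensory genes the gained share was then 3.95%. Scaling by backgrounds lowered every pileup ratio at the array and HoxB by 0.39 (to -1.27, -0.38 and -0.75 at sites 4 to 6 and -2.72 at the Hoxb3 peak). Every interval reached further down than that, so no ratio could have left its interval. Of 48 alternative values, 26 stayed within their interval or within 1.5 times the count. They include the values that could not have changed.

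No paired analysis was possible because each genotype has 1 library. Depth limits the reading of any absence at a −log10 q under about 20, and a difference between lines cannot be told apart from one between libraries.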
